A study of Rattus norvegicus with 15 samples.

Results

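Naphthalene-treated rat hepatocytes were compared with hepatocytes given the vehicle dimethyl sulfoxide (DMSO) on 6 one-colour Agilent expression arrays, 3 per group, taken from a set of 15. All groups were primary hepatocytes of male rats of the Wister strain (the spelling of the labels), bought cryopreserved, pre-cultured for 24 h and exposed for 24 h to 30 µM naphthalene or to DMSO alone. The other 9 arrays hold 1-naphthol, 1,5-naphthalenediol and 2,7-naphthalenediol at 30 µM, 3 arrays each. Bought hepatocyte lots are plated cells outside the liver, and the sources used here do not say how many donor rats stand behind the 3 arrays of a group, so the p-values below measure the spread between these arrays.

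Naphthalene is the simplest polycyclic aromatic hydrocarbon. Liver cytochrome P450 enzymes oxidise it to an epoxide, which rearranges to 1-naphthol, is opened to a dihydrodiol by epoxide hydrolase (Ephx1) or is joined to glutathione by glutathione transferases. Aromatic hydrocarbons that bind the aryl hydrocarbon receptor (AhR) induce Cyp1a1 and its partner genes, and electrophilic metabolites and quinones that modify Keap1 release NRF2, which induces Nqo1, glutathione synthesis and other defence genes.

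Each value below is a log2 signal relative to the 75th percentile of its own array, so 0 is the level of that percentile and levels of different genes cannot be compared. Differences are naphthalene minus DMSO on the log2 scale, given ± the standard error of a limma fit over all 15 arrays and 5 group means, and a gene was called at a Benjamini-Hochberg adjusted p below 0.05 over the 19803 genes tested. The 3 naphthalene arrays lie on slide 2 and the 3 DMSO arrays on slide 1, so slide and treatment cannot be told apart within these 6 arrays. Of the 5 groups, 1,5-naphthalenediol was the one hybridised on both slides, with array 3 on slide 2 and arrays 1 and 2 on slide 1. Its array 3 minus the mean of arrays 1 and 2 is called the slide difference here, and it rests on 1 array against 2. A second fit held slide as a block, which in this layout gives the naphthalene change minus the slide difference.

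The scanner software marked 57.4% to 61% of an array's gene spots as well above background. The 75th percentile of an array's signal lay between 1718 and 2074 scanner units. No gene spot was saturated. Naphthalene arrays correlated with each other, as DMSO arrays did, at r = 0.9962 or higher over all genes. All 7 hepatocyte markers were measured, with summed signals of 369 to 390 times the 75th percentile on naphthalene arrays and 387 to 401 times on DMSO arrays.

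The most uniform difference was in interferon-stimulated genes, which were lower on the naphthalene arrays. Interferon signalling acts on response elements in the promoters of antiviral genes such as Mx1, the Oas family and the Ifit family. Of the 52 genes listed, 47 were on the array and 44 passed the filter on dim probes. Of those 44, 36 (81.8%) were lower with naphthalene and 0 were higher, against 12.6% of all tested genes lower and 12.5% higher. Their median change was -0.894, while the median over all tested genes was -0.00225.

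Promoters of 3 members that hold an interferon response type of motif are shown as examples, chosen because they hold it. The sequences are the 250 bases before the gene's start in RefSeq annotation of the GRCr8 rat genome, 5′ to 3′ on the gene's strand. Capitals mark the interferon-stimulated response element type of motif, searched as GAAA, any 2 bases and GAAA, or its reverse complement TTTC, any 2 bases and TTTC.
Ifit3: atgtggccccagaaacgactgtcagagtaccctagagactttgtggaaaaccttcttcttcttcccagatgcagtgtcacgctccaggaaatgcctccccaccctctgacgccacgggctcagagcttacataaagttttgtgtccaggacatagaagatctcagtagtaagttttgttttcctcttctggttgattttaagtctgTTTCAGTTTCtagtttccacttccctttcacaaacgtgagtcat
Rsad2: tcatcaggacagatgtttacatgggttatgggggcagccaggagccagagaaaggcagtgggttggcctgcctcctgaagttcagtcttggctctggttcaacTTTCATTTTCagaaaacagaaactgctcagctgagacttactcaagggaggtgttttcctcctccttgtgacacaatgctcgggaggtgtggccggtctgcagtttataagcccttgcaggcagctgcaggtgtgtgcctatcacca
Gbp5: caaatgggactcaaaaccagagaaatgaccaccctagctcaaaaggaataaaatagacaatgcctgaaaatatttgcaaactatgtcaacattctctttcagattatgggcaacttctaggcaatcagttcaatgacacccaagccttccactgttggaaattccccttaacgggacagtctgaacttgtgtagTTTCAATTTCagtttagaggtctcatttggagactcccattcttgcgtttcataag
The Ifit3 stretch lies at chr1:241527076-241527325 on the plus strand, with the motif starting 44 bases before the gene's start. The Rsad2 stretch lies at chr6:48788121-48788370 on the minus strand, and the Gbp5 stretch at chr2:233910749-233910998 on the plus strand. Of the 44 tested genes of the list, 36 had a promoter in the table and 21 of these held the motif on either strand, while others, such as Mx1, Oasl and Cmpk2, did not hold these letters in this window. Among the 29 lower members with a promoter, 17 held it. The motif was in 2.71% of the promoters of all tested genes and in 3.41% of the 33469 promoters in the table. A match is a string of letters, not a bound site.

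Ifit3, an inhibitor of viral RNA translation and signalling, had the largest fall of the list. Its levels were -4.19, -2.78 and -1.64 on the naphthalene arrays and -1.48, 1.26 and 1.38 on the DMSO arrays. The groups did not overlap, but naphthalene array 3 and DMSO array 1 lay next to each other. The change was -3.26 ± 0.84 (adjusted p = 0.0173), and the slide difference of this gene was 0.56, in the opposite direction.
Rsad2, the antiviral enzyme viperin, had levels of -1.76, -1.04 and 0.20 with naphthalene and 0.14, 2.54 and 3.82 with DMSO. The top naphthalene array reached above the lowest DMSO array, so the groups overlapped. The change was -3.03 ± 0.929 (adjusted p = 0.0336). The Ifit3 call was lost without naphthalene array 1, DMSO array 2 or DMSO array 3 (highest adjusted p = 0.0687), and the Rsad2 call also without naphthalene array 2 (highest adjusted p = 0.129).

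Smaller falls with tighter arrays had lower p-values. Gbp5, a guanylate-binding protein of inflammasome and antibacterial defence, had levels of 0.20, 0.45 and 0.47 with naphthalene and 0.90, 1.43 and 1.20 with DMSO. Every naphthalene array was below every DMSO array, and the change was -0.80 ± 0.127 (adjusted p = 0.00275). Tap1, which carries peptides for antigen presentation, had levels of -2.37, -2.37 and -2.28 with naphthalene and -1.79, -1.06 and -1.35 with DMSO, a change of -0.94 ± 0.158 (adjusted p = 0.00327). Ifih1, the RNA sensor MDA5, differed by -1.02 ± 0.187 (adjusted p = 0.00425). Ifi27, a mitochondrial interferon-induced protein, had levels of 4.38, 4.45 and 4.31 with naphthalene and 4.73, 4.65 and 4.62 with DMSO. Its groups were also separate, at a change of -0.29 ± 0.0481 (adjusted p = 0.0032).

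A further 3 members were picked after their values were seen, 2 of them well-known readouts of the pathway and 1 a transcription factor of it. Mx1, a dynamin-like antiviral GTPase, had levels of -1.54, -0.83 and -0.88 with naphthalene and 0.00, 2.05 and 1.60 with DMSO, and changed by -2.30 ± 0.457 (adjusted p = 0.00589). Isg15, the ubiquitin-like modifier, changed by -1.69 ± 0.434 (adjusted p = 0.017). Stat2, the transcription factor, changed by -0.55 ± 0.113 (adjusted p = 0.00686). In each of these 3 genes the naphthalene arrays were all below the DMSO arrays.

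**Figure D1:**
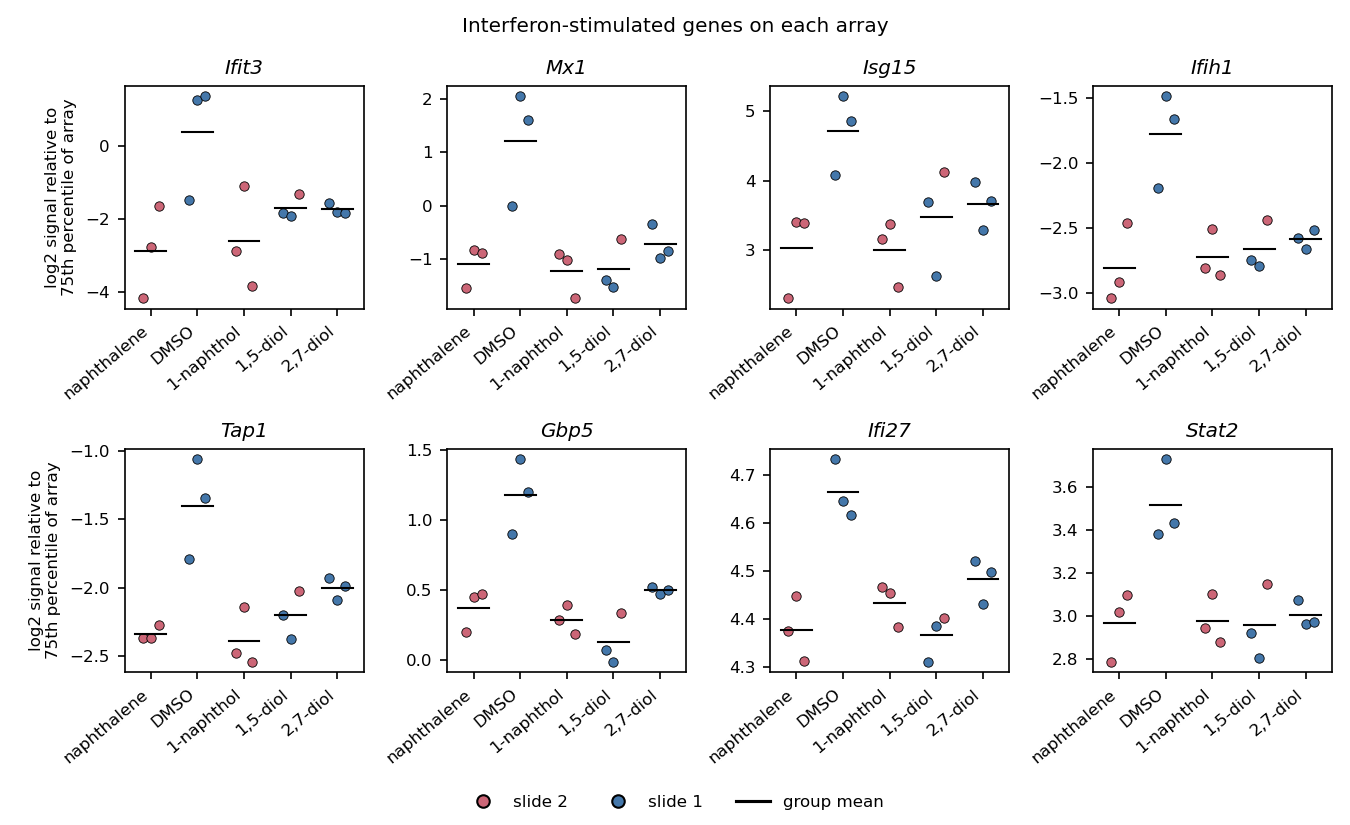
Log2 signal relative to the array's 75th percentile (y axis) of 8 interferon-stimulated genes on all 15 arrays, by group (x axis), with 1 point per array coloured by slide and a bar at the group mean. Naphthalene arrays lie below the DMSO arrays in all 8 genes and overlap the 1-naphthol arrays beside them, and in Ifit3 the highest naphthalene array (-1.64) is close to DMSO array 1 (-1.48).

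The 8 tested members that were not called were Irf7, Irf9, Oas2, Cxcl10, Tap2, Tnfsf10, Bst2 and Trim25, with changes from -1.15 (Cxcl10) to 0.14 (Trim25). Over the list, 43 of 44 changes were below 0, and in 37 the groups did not overlap, against 41.3% of all tested genes. Among the 36 lower members, 17 fell by at least 1 on the log2 scale.

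The slide difference ran the other way for most of the list. It was above 0 in 40 of the 44 genes, with a median of 0.36. All 36 falls were larger than the gene's slide difference in size, as were 2429 of all 2502 called falls (12.3% of all tested genes). In this respect the 36 falls were near called falls in general. More than 2 times as large were 24 of the 36, as were 3101 of all 4980 called changes. With slide as a block the median change was -1.217 and 43 of 44 changes stayed below 0, yet 1 gene was called, Gbp5, at -1.11 (adjusted p = 0.0472), where 0.217% of all tested genes were called lower. In that fit 22 of the 44 members had an adjusted p below 0.1. The share of all tested genes at this looser threshold was not counted, so nothing is concluded from that number.

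DMSO array 1 was the lowest of the DMSO arrays in 39 of the 44 genes. The mean over the list, each gene centred on its mean over 15 arrays, was -0.668, -0.206 and -0.032 on the naphthalene arrays and 0.287, 1.023 and 0.875 on the DMSO arrays. On slide 1 together with DMSO, the 2,7-naphthalenediol arrays had 0.091, -0.113 and -0.047, and 1,5-naphthalenediol arrays 1 and 2 had -0.171 and -0.351. The DMSO arrays were thus the 3 highest of the 15, and 0 of the 44 genes differed between naphthalene and 1-naphthol, both on slide 2, where the median difference was 0.003 and 2.44% of all tested genes differed. The number of lower members was 20 without naphthalene array 1, 20 without DMSO array 2 and 21 without DMSO array 3. It was 18 with the 6 arrays alone, where Ifit3 and Rsad2 were not called (adjusted p = 0.0731 and 0.0906), 15 at an adjusted p below 0.01, 24 with no filter on dim probes and 26 with slide as a random block.

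Other liver cells among the hepatocytes were followed by their markers. Of 7 macrophage markers, Cd68 and Cd14 were above background, and Cd163, Marco, Clec4f, Adgre1 and Csf1r were not well above background on any of the 15 arrays. The summed macrophage signal was 1.42 to 1.56 times the 75th percentile with naphthalene and 1.32 to 1.46 times with DMSO, nearly all of it from Cd14. Neither Cd14 nor Cd68 was called, at 0.08 and -0.01 (adjusted p = 0.353 and 0.95). Cd3e, Cd4, Cd8a and Ptprc, markers of lymphocytes and leukocytes, were not well above background on any array. Nkg7, a granule protein of cytotoxic lymphocytes, was well above background on 14 of the 15 arrays (3 of 3 with naphthalene, 2 of 3 with DMSO) and was not called, at 0.48 (adjusted p = 0.175). Of 7 stellate cell markers, 4 were tested, with a median change of 0.368 and summed signals of 0.298 to 0.326 with naphthalene and 0.231 to 0.323 with DMSO. Reln was higher, at 0.40 (adjusted p = 0.00743), while Des at 0.40, Acta2 at 0.34 and Col1a2 at 0.04 were not called (adjusted p = 0.187, 0.216 and 0.898). Cdh5, of endothelium, was not called, at 0.20 (adjusted p = 0.137). Of 5 bile duct markers, 2 were tested. Sox9 was higher, at 0.36 (adjusted p = 0.0354) with a slide difference of 0.36. Its call was lost when any one of 5 arrays, all but naphthalene array 3, was left out. Epcam was not called, at -0.05, and Krt19 and Spp1 were not well above background on any array. The summed bile duct signals overlapped, at 0.631 to 0.664 with naphthalene and 0.605 to 0.656 with DMSO. The part of these cells in the differences was not tested. In bulk RNA, fewer cells of a type and less RNA per cell cannot be told apart.

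The genes that aromatic hydrocarbons classically induce gave no call. Cyp1a1, the P450 used as the readout of AhR activation, had levels of -0.04, -0.13 and 0.06 with naphthalene and -0.39, -0.16 and -0.20 with DMSO. All 3 naphthalene arrays were above the DMSO arrays, but the change of 0.21 ± 0.121 was not called (adjusted p = 0.209, 95% confidence interval -0.05 to 0.48). Its slide difference was 0.18, and with slide as a block the change was 0.04 (95% confidence interval -0.44 to 0.52). Beside it on slide 2, 1-naphthol gave 2.30, 2.02 and 2.09, and naphthalene minus 1-naphthol was -2.17 (adjusted p = 1.88e-06).
Aldh3a1, an aldehyde dehydrogenase induced through AhR, was well above background on 1 of 3 naphthalene arrays and 0 of 3 DMSO arrays. Its change of -0.09 was not called (adjusted p = 0.542). It was lower than with 1-naphthol (adjusted p = 5.49e-10), by an amount that the dim naphthalene arrays leave without an exact size. Cyp1a2, the constitutive liver member of the family, changed by 0.14 ± 0.0631 (adjusted p = 0.126), and it was called without naphthalene array 1, at 0.21 (adjusted p = 0.0244). Ahrr, the AhR repressor, was not well above background on any array of either group.

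Of the 11 AhR target genes tested, 0 were higher and 1 was lower with naphthalene, beside 12.5% and 12.6% of all tested genes. Against 1-naphthol, 4 of the 11 were lower with naphthalene, as were 1.04% of all tested genes. The gene lower than with DMSO was Lpcat2, a phospholipid-remodelling acyltransferase, at -0.35 ± 0.0998 (adjusted p = 0.0243). No AhR target was called lower without DMSO array 1 or without DMSO array 3. The median over the 11 genes was 0.008.

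Of 15 enzymes of naphthalene oxidation and hydrolysis tested, 0 were higher and 2 were lower (13.3%), beside 12.6% of all tested genes lower. Cyb5r3, which supplies electrons to liver oxidations, had levels of 2.43, 2.40 and 2.42 with naphthalene and 2.64, 2.63 and 2.64 with DMSO. These groups were clearly apart, at a change of -0.22 ± 0.033 (adjusted p = 0.00235) against a slide difference of -0.07. Cyp3a2, a male-specific P450 of rat liver, had levels of -4.30, -3.96 and -3.86 with naphthalene and -3.71, -3.64 and -3.58 with DMSO, a change of -0.40 ± 0.102 (adjusted p = 0.0171). Without DMSO array 3 or without naphthalene array 1, 1 of the 15 was lower. Ephx1, Cyp2e1 and Cyp2f4, the last being the P450 that bioactivates naphthalene in rodent airways, were not called, with changes of -0.09, -0.10 and -0.11 and adjusted p-values of 0.505, 0.565 and 0.0672.

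Of 21 glutathione transferases tested, 1 was higher and 3 were lower (14.3%), beside 12.5% and 12.6% of all tested genes, and 6 were lower with naphthalene than with 1-naphthol, beside 1.04% of all. Gstt1, a theta-class transferase, differed by -0.23 (adjusted p = 0.00881), and leaving out any one of DMSO arrays 1, 2 and 3 or naphthalene array 2 left 1 transferase lower. The single rise was lost without any one of the 6 arrays. Gsta2, an alpha-class enzyme of hepatocytes, had levels of 2.78, 2.88 and 2.91 with naphthalene and 2.80, 2.83 and 2.77 with DMSO, which overlapped. Gsta2 differed by 0.06 ± 0.0714 (adjusted p = 0.578), and Gstp1, a pi-class enzyme, by 0.09 ± 0.0423 (adjusted p = 0.118). Naphthalene minus 1-naphthol was -0.78 for Gsta2 (adjusted p = 0.000217) and -0.83 for Gstp1 (adjusted p = 1.17e-06). Of 17 glucuronidation and sulfation genes, 1 was higher and 1 was lower. Neither call was steady: Ugt2a1, the higher one at 0.47, was smaller than its slide difference of 0.65, stood at -0.18 with slide as a block and lost its call when any one of the 6 arrays was left out. The lower count was 0 without naphthalene array 1 or 2 and 4 without naphthalene array 3.

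Of 41 genes of the NRF2 response tested, 4 were higher and 4 were lower (9.76% each), beside 12.5% and 12.6% of all tested genes. Nqo1, the quinone reductase that is its usual readout, had levels of -0.59, -0.72 and -0.48 with naphthalene and -0.66, -0.59 and -0.73 with DMSO, and the groups overlapped. The change was 0.06 ± 0.0595 (adjusted p = 0.448), while naphthalene minus 1-naphthol was -1.17 (adjusted p = 1.17e-06). Gclc, the catalytic subunit of glutathione synthesis, and Txnrd1, thioredoxin reductase, were not called, at -0.09 and -0.07 (adjusted p = 0.252 and 0.514). Slc7a11, the cystine importer, differed by 0.19 ± 0.0786 (adjusted p = 0.0964), and its probes disagreed in sign.

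Hmox1, the haem-degrading enzyme of the oxidative stress response, was lower with naphthalene. Its levels were -1.05, -1.03 and -1.04 with naphthalene and -0.69, -0.62 and -0.59 with DMSO. Naphthalene arrays were nearly identical and all below DMSO, at a change of -0.41 ± 0.0687 (adjusted p = 0.0032). The slide difference was -0.04, and with slide as a block the change was -0.37 (95% confidence interval -0.65 to -0.09, adjusted p = 0.14). Srxn1, sulfiredoxin, fell by 0.25 on the log2 scale (adjusted p = 0.0418), a call that was lost when any one of 5 arrays, all but DMSO array 1, was left out. Ggt1, which splits extracellular glutathione, rose by 0.43 ± 0.0543 (adjusted p = 0.00139) with a slide difference of 0.06. Abcc4, an efflux pump for conjugates, had levels of -0.76, -0.84 and -0.78 with naphthalene and -1.06, -1.06 and -1.03 with DMSO. It rose by 0.26 ± 0.0508 (adjusted p = 0.00552) and was also called with slide as a block, at 0.42 (adjusted p = 0.0353). Mafg, a small Maf partner of NRF2, rose by 0.37 ± 0.0633 (adjusted p = 0.0034), and its probes disagreed in sign. With each array's median in place of its 75th percentile, the median change over all tested genes was -0.0879, against -0.00225. This scaling called 15 genes of this list lower. The lower count was 1 without DMSO array 3, naphthalene array 1 or naphthalene array 2, and 2 without DMSO array 1 or DMSO array 2.

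**Figure D2:**
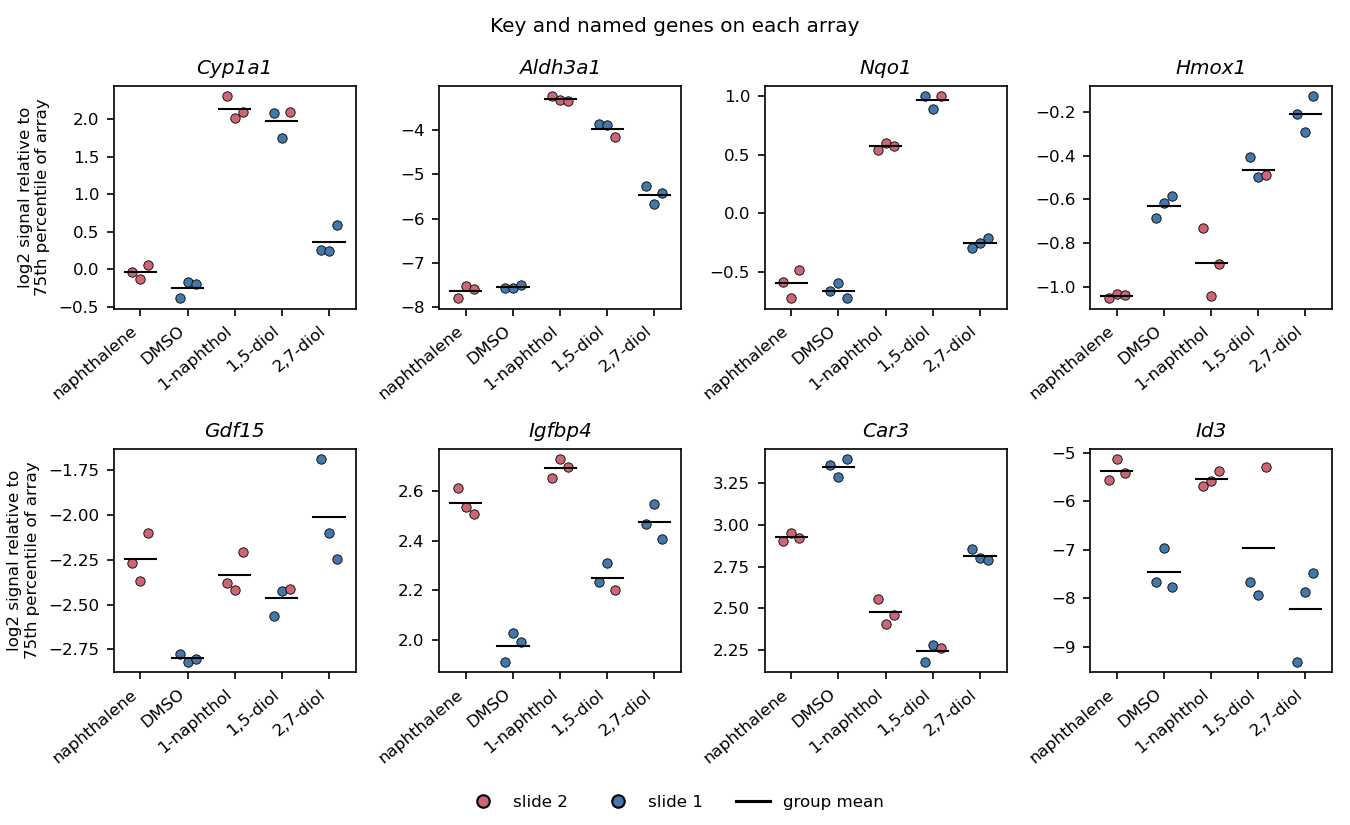
Log2 signal relative to the array's 75th percentile (y axis) of 8 genes on all 15 arrays, by group (x axis), 1 point per array coloured by slide, with a bar at the group mean. Naphthalene lies with DMSO and far below 1-naphthol in Cyp1a1, Aldh3a1 and Nqo1, lies below DMSO in Hmox1 and Car3 and above it in Gdf15 and Igfbp4, and in Id3 the arrays split by slide.

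Of 29 key genes of exposure and stress, 25 were tested. Of these, 1 was higher and 3 were lower, beside 12.5% and 12.6% of all tested genes, so key genes were called no more often than genes in general. The other 21 were not called, with changes between -0.13 and 0.3. The higher one was Gdf15, a stress-induced cytokine, with levels of -2.27, -2.37 and -2.10 on naphthalene arrays and -2.78, -2.82 and -2.81 on DMSO arrays. The groups were well apart, and the change of 0.56 ± 0.119 (adjusted p = 0.00792) stood against a slide difference of 0.08. With slide as a block it was 0.48 (95% confidence interval -0.01 to 0.96, adjusted p = 0.267). The 3 lower genes were Hmox1, Srxn1 and Atf3, a stress-induced transcription factor, which differed by -0.27 ± 0.0823 (adjusted p = 0.0322) and was no longer called when any one of 5 arrays, all but DMSO array 1, was left out. None of the 25 was called in the fit with slide as a block. Against 1-naphthol on the same slide, 6 key genes were lower and 0 were higher with naphthalene, where 1.04% of all tested genes were lower and 1.4% higher.

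**Figure D3:**
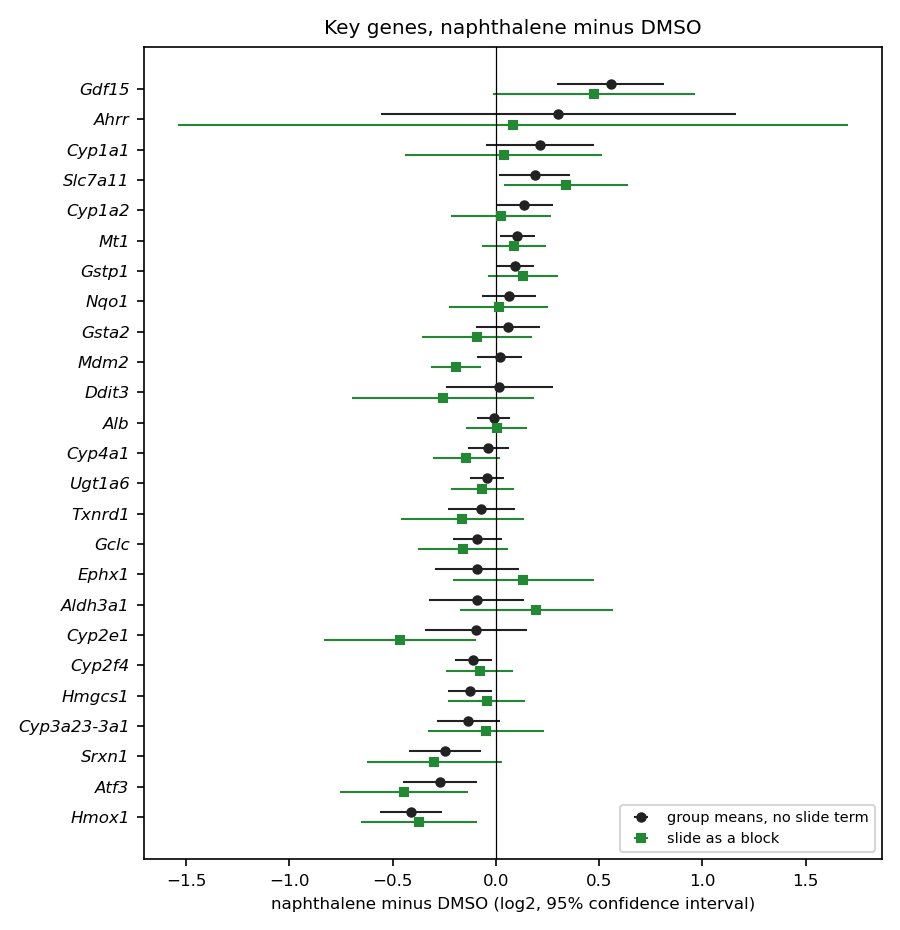
Change of the 25 tested key genes, naphthalene minus DMSO in log2 units (x axis), with 95% confidence intervals, one gene per row. Black circles come from the fit of group means and green squares from the fit with slide as a block; Gdf15 (0.56) lies highest and Hmox1 (-0.41) lowest, and the block intervals are wider.

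Across the array, 4980 of 19803 genes (25.1%) were called, 2478 higher (12.5%) and 2502 lower (12.6%). Most were small: the median size among the called genes was 0.263, and 151 changed at least 2-fold, 73 higher and 78 lower. With each array's median as the scale, 6736 genes were called and 21.5% of them were higher, against 49.8% with the 75th percentile. The count was 2859 without naphthalene array 1, 3272 without DMSO array 2 and 2583 without DMSO array 3.

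Over all tested genes the standard deviation of the naphthalene change was 0.272 and that of the slide difference 0.269. These widths are not like for like, since the change compares 3 arrays with 3 and the slide difference 1 array with 2, which averages out less array noise. Between single arrays of 1,5-naphthalenediol, the standard deviation was 0.292 for array 3 minus array 1 and 0.287 for array 3 minus array 2. It was 0.214 between arrays 1 and 2, both on slide 1. The slide difference shares no array with the naphthalene change, and across genes, which are not independent replicates, they correlated at Pearson r = 0.316 and Spearman rho = 0.227. Of the called genes, 3054 had a slide difference of the same direction and 1926 of the opposite one.

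In size alone, 4516 called changes (22.8% of all tested genes, 90.7% of those called) exceeded the gene's slide difference, and 3101 (15.7%) were more than 2 times as large. Among the 151 changes of at least 2-fold, 118 exceeded it. The size of the change minus the size of the slide difference was also divided by the block fit's standard error, as a t statistic. It passed adjustment for 0 genes, with 830 (4.19%) at an unadjusted p below 0.05. Sizes include array noise, more so for the slide difference, so this 0 settles nothing. With slide as a block, 144 genes (0.727%) were called, 101 higher (0.51%) and 43 lower, and 435 genes called without the block turned their sign. Genes called with the same sign in both fits numbered 110 (0.555%), of which 83 were higher and 27 lower. In all 110 the slide difference had the direction opposite to the change, so the block enlarged each of them, and none reached 2-fold without it. The median standard error was 0.121 with the block and 0.0725 without.

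The block's count rested on single arrays. It was 1 gene without DMSO array 2, without DMSO array 3, without 1,5-naphthalenediol array 1 or without 1,5-naphthalenediol array 2, 5 without naphthalene array 2, 61 without naphthalene array 1, 235 without DMSO array 1 and 697 without naphthalene array 3. The 1 gene was each time Ndufa11, a subunit of respiratory complex I, named here after its values were seen. It had a slide difference of 0.87 and a naphthalene change of -0.21 that was not called (adjusted p = 0.408).

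**Figure D4:**
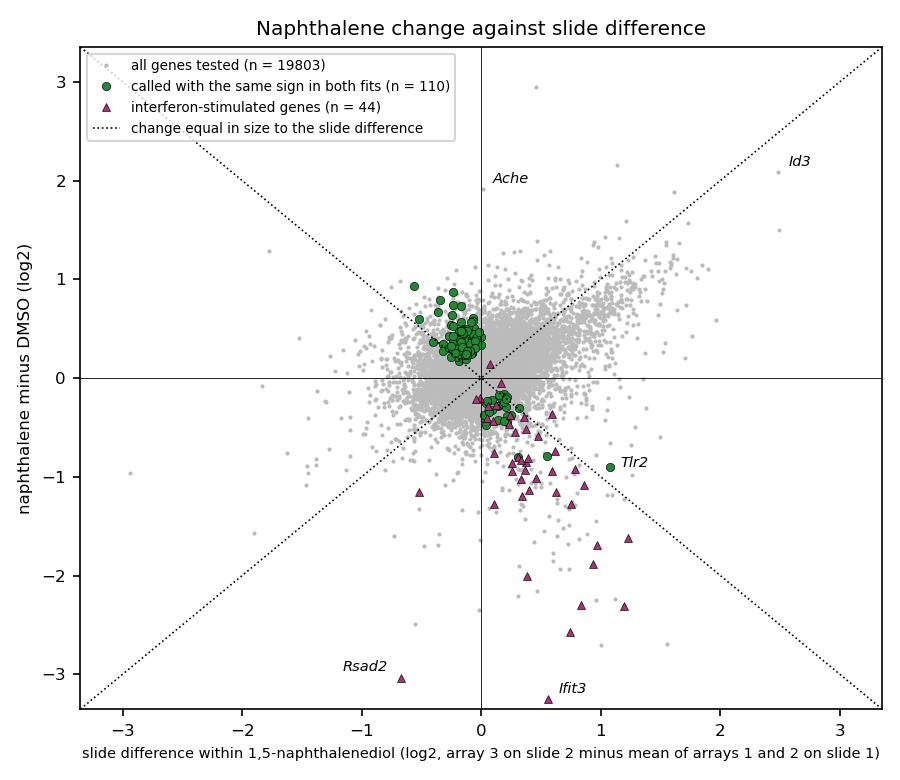
Change of each tested gene, naphthalene minus DMSO (y axis, log2), against its slide difference within 1,5-naphthalenediol (x axis, log2). Green points are the 110 genes called with the same sign in both fits, all with a slide difference of the opposite direction, purple triangles are the 44 interferon-stimulated genes, and dotted lines mark changes equal in size to the slide difference.

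Among the 83 genes higher in both fits, Eif4ebp2, a repressor of cap-dependent translation, led those with a symbol. Its levels were 0.10, 0.09 and 0.41 with naphthalene and -0.42, -0.38 and -0.43 with DMSO, a change of 0.61 ± 0.0721 (adjusted p = 0.00112). It was also above 1-naphthol, by 0.36 (adjusted p = 0.0226). Igfbp4, a secreted binding protein of insulin-like growth factors, had levels of 2.61, 2.54 and 2.51 with naphthalene and 1.91, 2.03 and 1.99 with DMSO. The change was 0.57 ± 0.0494 (adjusted p = 0.000889) against a slide difference of -0.07, and 1-naphthol arrays were as high, at 2.65, 2.73 and 2.70. Zbtb16, a transcription factor induced by glucocorticoids, rose by 0.47 ± 0.052 (adjusted p = 0.000922), 22.0 times the size of its slide difference. Mras, a Ras-family GTPase, rose by 0.45 ± 0.0446 (adjusted p = 0.000889) and was higher than with 1-naphthol by 0.25 (adjusted p = 0.0153). The other 6 of the 10 largest rises, Pcnx3, Arhgef19, Shank2, Zmynd8, Zfp523 and Shank3, changed by 0.45 to 0.49.

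Among the 27 genes lower in both fits, Tlr2, a receptor of bacterial lipoproteins, had levels of -6.03, -6.15 and -5.48 with naphthalene and -5.18, -4.81 and -4.96 with DMSO. It was low on every array and changed by -0.91 ± 0.276 (adjusted p = 0.0331), less than its slide difference of 1.07, and the call was lost without naphthalene array 1 or 2 or DMSO array 2 or 3. Map3k8, a kinase that Toll-like receptors activate, had levels of -3.82, -3.88 and -3.78 with naphthalene and -3.36, -3.39 and -3.30 with DMSO, a change of -0.48 ± 0.0444 (adjusted p = 0.000889) against a slide difference of 0.04. Car3, the abundant carbonic anhydrase of rat liver, had levels of 2.91, 2.95 and 2.92 with naphthalene and 3.36, 3.29 and 3.39 with DMSO. The change was -0.42 ± 0.0466 (adjusted p = 0.000922), and naphthalene was above 1-naphthol by 0.45 (adjusted p = 0.000456), whose arrays read 2.56, 2.41 and 2.46. Snhg4, a small nucleolar RNA host gene, changed by -0.37 (adjusted p = 0.000963), and naphthalene minus 1-naphthol was -0.24 (adjusted p = 0.0135). The others of the 10 largest falls were Gbp5, Sdr16c5, Arhgap8, Wsb1, Tdrd7 and Dtx4. Of the 110 genes, 15 differed from 1-naphthol, beside 2.44% of all tested genes. The 110 were selected on the same naphthalene arrays, so nothing is concluded from that count.

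The largest changes among genes with a symbol lost their call with the block. Id3, an inhibitor of basic helix-loop-helix factors, had levels of -5.57, -5.14 and -5.42 with naphthalene and -7.66, -6.96 and -7.77 with DMSO, where no array was well above background. On the processed signals it was at least 4.25-fold higher with naphthalene (adjusted p = 0.0268), a bound that did not hold with normexp and quantile normalization, where the change was 0.48 (adjusted p = 0.0078). Its 1,5-naphthalenediol arrays read -5.31 on slide 2 and -7.66 and -7.92 on slide 1, and with the block the change was -0.40. Cox6c-ps1 and Slc31a1, the copper importer, behaved the same way, with changes of 1.23 and 1.20, slide differences of 1.45 and 1.64, and block changes of -0.22 and -0.44. Ache, acetylcholinesterase, differed from these. Its levels were -6.33, -6.26 and -6.17 with naphthalene and -8.96, -7.57 and -7.98 with DMSO, again not well above background on any DMSO array. On the processed signals it was at least 2.96-fold higher (adjusted p = 0.00341) with a slide difference of 0.01, the block change was 1.90 (adjusted p = 0.126), and normexp gave a change of 0.25 (adjusted p = 0.00573). Il2rb, a receptor chain for interleukin signals, was at least 2.29-fold higher on the processed signals (adjusted p = 0.0196) and changed by 0.25 with normexp (adjusted p = 0.014). The Il2rb call was lost without naphthalene array 1 or DMSO array 3, the Slc31a1 call without naphthalene array 2 or DMSO array 3, and the Id3 call without naphthalene array 1 or 2 or DMSO array 1 or 3.

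Of 32 proteasome subunits tested, 15 were lower (46.9%) and 1 was higher, beside 12.6% and 12.5% of all tested genes. Their median change was -0.111 and their median slide difference 0.003. Psmd7, a lid subunit, had levels of 1.43, 1.41 and 1.38 with naphthalene and 1.75, 1.75 and 1.85 with DMSO. The groups were apart at a change of -0.38 ± 0.0616 (adjusted p = 0.00304), 1.86 times its slide difference of -0.20. Psmd14, the lid deubiquitinase, fell by 0.30 on the log2 scale (adjusted p = 0.00405), Psma7 by 0.22 (adjusted p = 0.00434) and Psma6 by 0.18 (adjusted p = 0.00543), both of the last being core alpha subunits. Of the 15 falls, 14 exceeded the slide difference, as did 90.7% of all called genes. Over 2 times as large were 10 of the 15, as were 3101 of all 4980 called genes, so these counts are near those of called genes in general. With the block, 0 were called. Without DMSO array 3 the count of lower subunits was 8, without naphthalene array 1 it was 8 and without naphthalene array 2 it was 9.

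Of 21 heat shock genes tested, 9 were lower (42.9%) and 1 was higher, beside 12.6% and 12.5% of all tested genes. The other 11 were not called, and the median change of the 21 was -0.074. With slide as a block, 0 of the 21 were called. Dnaja1, an HSP70 co-chaperone, had levels of 0.52, 0.69 and 0.71 with naphthalene and 0.97, 1.09 and 1.03 with DMSO, a change of -0.39 ± 0.0559 (adjusted p = 0.00196) against a slide difference of -0.08. Hsp90aa1, the inducible HSP90, fell by 0.37 on the log2 scale (adjusted p = 0.0147). The count of lower heat shock genes was 4 without DMSO array 3, 4 without naphthalene array 1, 5 without DMSO array 2 and 5 without naphthalene array 2. Among 28 genes of endoplasmic reticulum chaperones and the unfolded protein response, 8 were lower (28.6%) and 3 were higher, beside the same shares of all genes. The other 17 were not called, and the median change of the 28 was -0.02. With slide as a block, 0 of the 28 were called. Hsp90b1 fell by 0.38 on the log2 scale (adjusted p = 0.00579) and Hspa5 by 0.19 (adjusted p = 0.0122), both chaperones of the endoplasmic reticulum lumen. The count of lower genes was 4 without DMSO array 1 or DMSO array 3, and 5 without DMSO array 2, naphthalene array 1 or naphthalene array 2.

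Among 36 genes of the ATF4 amino acid response, 11 were lower (30.6%) and 4 were higher, beside 12.6% and 12.5% of all tested genes. Slc3a2, the shared heavy chain of amino acid exchangers, had levels of 1.50, 1.59 and 1.58 with naphthalene and 1.87, 2.03 and 1.96 with DMSO. It changed by -0.40 ± 0.0506 (adjusted p = 0.00139), 10.9 times the size of its slide difference. With slide as a block Slc3a2 was not called (adjusted p = 0.0772), and 0 of the 36 genes were called lower. Aldh18a1, of proline synthesis, fell by 0.39 on the log2 scale (adjusted p = 0.00294) and Atf4 itself by 0.22 (adjusted p = 0.00358). Cebpb, a liver transcription factor, rose by 0.31 (adjusted p = 0.00188), was called in both fits, and had probes that disagreed in sign. The lower count was 4 without naphthalene array 1, 5 without DMSO array 3, 6 without naphthalene array 2 or DMSO array 1, and 7 without DMSO array 2.

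Of 26 genes of cholesterol synthesis and uptake, 8 were lower (30.8%) and 1 was higher, beside 12.6% and 12.5% of all tested genes. The lower ones included Cyp51 at -0.29 (adjusted p = 0.00425), Msmo1 at -0.22 (adjusted p = 0.00618) and Fdps at -0.18 (adjusted p = 0.00984), 3 enzymes of the synthesis pathway. The higher one was Srebf2, the transcription factor that drives the pathway, with levels of 0.88, 0.84 and 0.70 with naphthalene and 0.46, 0.53 and 0.50 with DMSO (0.31 ± 0.0502, adjusted p = 0.00299). All 9 exceeded their slide difference, as did 90.7% of all called genes, and none was called with the block. Without DMSO array 3, 3 genes were lower, and without naphthalene array 1, 4.

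**Figure D5:**
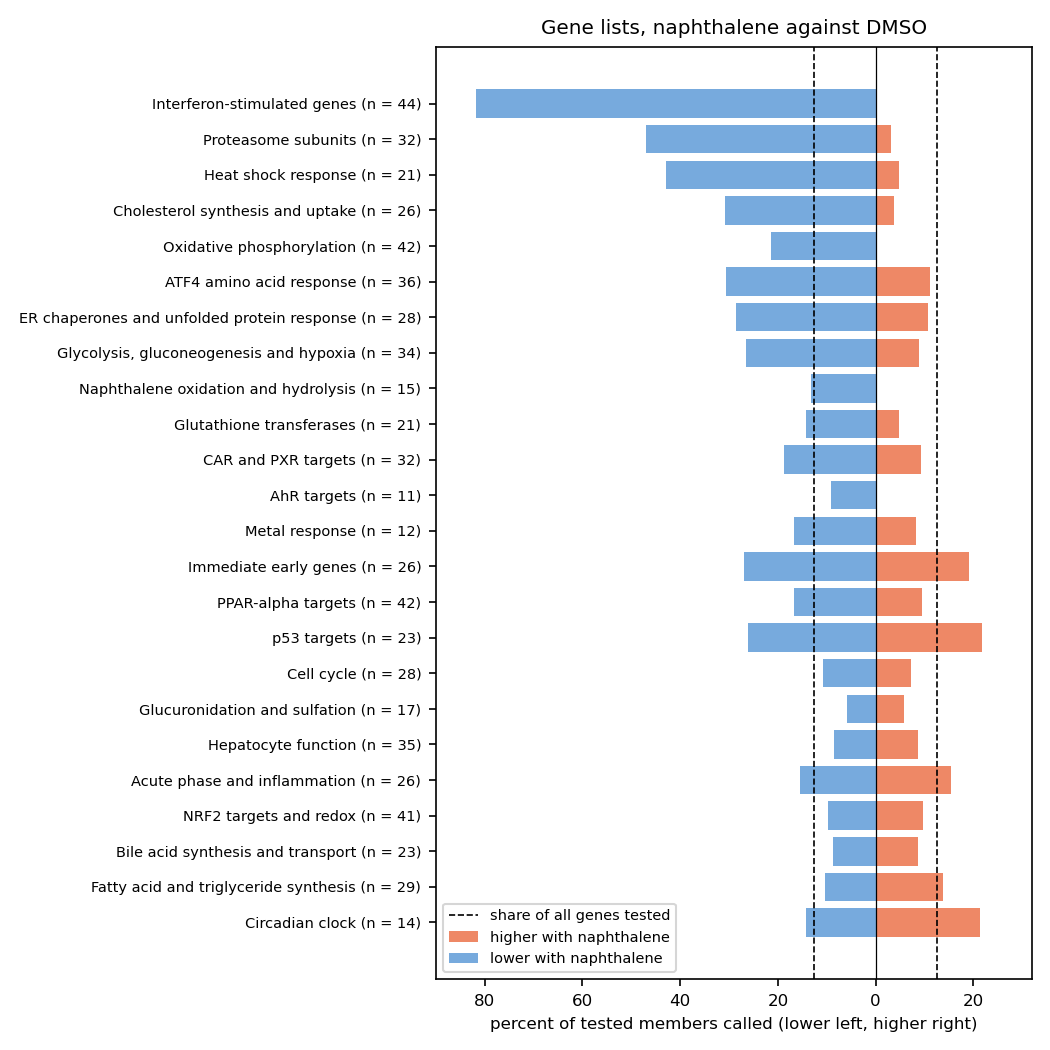
Percent of the tested members of each list called (x axis), higher with naphthalene to the right and lower to the left, one list per row with its number of tested members. Dashed lines mark the shares of all tested genes (12.5% higher, 12.6% lower); interferon-stimulated genes (81.8% lower), proteasome subunits (46.9%) and heat shock genes (42.9%) reach farthest to the left.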

How the data were processed

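RNA of 15 hepatocyte cultures was labelled with Cy3 and hybridised to one-colour Agilent arrays, 3 arrays in each of 5 groups on 2 slides, and 6 of the arrays carry the comparison here. The authors deposited the scanner output of Feature Extraction 10.7.1.1, and the values used are its processed spot intensity, named so per the file headers, in linear scanner units. How background was taken off is not given in the sources used here. The labels give no depth; the number of arrays limits the precision.

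Control spots and population or uniformity outliers were left out, 250 to 354 spots an array. Spots of a probe were averaged on the log2 scale after subtraction of each array's 75th percentile over gene spots. A probe was kept where some group had it well above background on each of its 3 arrays (23562 probes). The brightest probe stood for its gene, giving 19803 genes, 10503 with a RefSeq symbol and 9300 under an accession. Tests used limma 3.58.1 in R 4.3.3 (lmFit, eBayes) over 15 arrays with 5 group means and Benjamini-Hochberg adjustment. The fits were tested on simulated data. Slide was held as a fixed block in a second fit. The alternative with normexp background correction used the median in place of the mean spot signal, which is not among the columns analysed here.

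Named genes are 29 key genes, the 10 largest rises and falls called in both fits, the 5 largest rises and falls whose call the block removed, and up to 4 members of each list with the smallest adjusted p. Members and lists were chosen with earlier results of these data known. For a gene not well above background in a group, a fold is a lower bound on the processed signals, against the dimmest signal well above background on each array or the gene's own, whichever was higher. Gene symbols were assigned by matching each probe's accession to RefSeq transcripts, and promoters were matched by symbol. Some items of the lists are not reported here. The other alternatives were quantile or median scaling, no filter or a stricter one, mean of a gene's probes, outlier spots kept, the 6 arrays alone, slide as a random block, a replicate block, a threshold of 0.01 and leaving out each array.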

Additional observations from a re-analysis of the deposited data

How the results depend on the processing

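The number of called genes (4980) was 2181 with no filter on dim probes (1143 higher, 1038 lower), 2795 with the 6 arrays alone (1739 higher, 1056 lower), 1866 with slide as a random block (918 higher, 948 lower), 144 with slide as a fixed block (101 higher, 43 lower), 1646 at an adjusted p below 0.01 (821 higher, 825 lower) and 6736 with the array median as the scale (1446 higher, 5290 lower). Leaving out 1 array gave 2583 to 4977 called genes, 1281 to 2490 higher and 1292 to 2487 lower. The test of size against the slide difference, added after the data were seen, called 0. The fixed-block count (144) was 291 with quantile normalization, 65 with the array median, 611 with normexp, 15 with no filter, 346 for genes well above background on all 15 arrays, 86 with the mean of a gene's probes, 1 with a replicate block, 1 at an adjusted p below 0.01 and 1 to 697 without 1 array. With the fixed block, Id3 stood at -0.40, Cox6c-ps1 at -0.22, Slc31a1 at -0.44 and Ugt2a1 at -0.18, against a rise without it; the cause was not tested. The replicate block gave 4579 called genes. Same-numbered naphthalene and DMSO arrays had residual correlations of 0.197, 0.026 and 0.15. Of the 30 same-numbered pairs in the whole set, 2 were above 0.1, both of them in this comparison. In the set, 5 of 15 arrays correlated best with one of their own number. A pairing of arrays by number was thus not shown, but this check cannot exclude it. Of 157 named genes, each counted once, 114 kept their call and direction or stayed uncalled with no filter, and 60 did with the fixed block. Genes that stayed uncalled are counted there whatever their direction.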

Other observations

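Ppara, the receptor that drives fatty acid oxidation, had levels of -1.94, -1.94 and -2.16 with naphthalene and -2.39, -2.42 and -2.43 with DMSO, rose by 0.40 ± 0.0759 (adjusted p = 0.00479, limma) and was called with slide as a block at 0.63 (adjusted p = 0.0424). Among 42 PPAR-alpha targets, 4 were higher (9.52%) and 7 were lower (16.7%), beside 12.5% and 12.6% of all tested genes, with Pdk4 at 0.64 (adjusted p = 0.0114) and Cyp4a3 at -0.31 (adjusted p = 0.0113). Without DMSO array 3, 2 were higher and 4 lower; 2 were higher without naphthalene array 1, and 4 were lower without DMSO array 1 or naphthalene array 2. Cebpa, a factor of hepatocyte identity, had levels of 1.52, 1.58 and 1.55 with naphthalene and 1.24, 1.20 and 1.07 with DMSO, and rose by 0.38 ± 0.0634 (adjusted p = 0.00307). Tat, tyrosine aminotransferase, fell by 0.41 on the log2 scale (adjusted p = 0.00618), and of 35 hepatocyte function genes 3 were higher and 3 lower (8.57% each), both under those shares of all genes. The lower count was 1 without DMSO array 1, DMSO array 3 or naphthalene array 2, and 6 without naphthalene array 3.

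The p53 list split in both directions, with 5 of 23 genes higher (21.7%) and 6 lower (26.1%), beside 12.5% and 12.6% of all tested genes. All 11 exceeded 2 times their slide difference, as did 3101 of all 4980 called genes, but with slide as a block 0 of the 23 were called. Xpc, a DNA damage recognition factor, had levels of -1.66, -1.50 and -1.45 with naphthalene and -1.01, -0.85 and -0.94 with DMSO, a change of -0.60 ± 0.0659 (adjusted p = 0.000922). With slide as a block it was -0.45 (adjusted p = 0.0705). Cdkn1a, the p21 cell cycle inhibitor, rose by 0.21 ± 0.0352 (adjusted p = 0.00342), with probes that disagreed in sign. C3, the complement component, had levels of 5.31, 5.31 and 5.35 with naphthalene and 4.93, 4.99 and 4.94 with DMSO, and was higher in both fits, at 0.37 ± 0.0656 (adjusted p = 0.00379) and 0.61 with the block (adjusted p = 0.0347). Fosl1, an AP-1 subunit, fell by 0.64 on the log2 scale (adjusted p = 0.00357), and Nr1d1, the clock repressor REV-ERB-alpha, rose by 0.47 (adjusted p = 0.00568).

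Of 42 oxidative phosphorylation genes, 0 were higher and 9 were lower (21.4%), beside 12.5% and 12.6% of all tested genes, led by Ndufv2, a complex I subunit, at -0.17 (adjusted p = 0.00914) and Atp5f1a, an ATP synthase subunit, at -0.16 (adjusted p = 0.011). The lower count was 3 without DMSO array 1, 2 without DMSO array 3 and 4 without naphthalene array 2. With slide as a block, 0 of the 42 were called. Of 32 genes regulated by the drug receptors CAR and PXR, 3 were higher (9.38%) and 6 were lower (18.8%), beside 12.5% and 12.6% of all tested genes. The other 23 were not called, the median change was 0.006, and with slide as a block 0 of the 32 were called. Nr1i2, which encodes PXR, rose by 0.22 (adjusted p = 0.00419) and Cyp2b3 by 0.23 (adjusted p = 0.00742), while Ces2c, a carboxylesterase, and Cyp2c23, an arachidonate epoxygenase, fell by 0.21 and 0.24 on the log2 scale (adjusted p = 0.00351 and 0.00741). The lower count was 3 without DMSO array 3 or naphthalene array 1.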
